A study of Mus musculus with 8 samples.

Results

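Receptors for inflammatory mediators, 10 genes in all, were followed in back-labelled mouse sensory neurons, whose cell bodies lie in the dorsal root ganglia beside the spinal cord. They were taken by their symbols from the 22609 genes counted in every library. The genes are Ptger1, Ptger2, Ptger3, Ptger4 and Ptgir for prostaglandins, Bdkrb2 for bradykinin, Il1r1 for interleukin-1, Tnfrsf1a for tumour necrosis factor, and Il6st and Lifr for the interleukin-6 family. The neurons came from naive young adult C57BL/6J mice, 4 females in the estrous phase and 4 males, with no treatment in either sex other than the tracer. The fluorescent lectin WGA-488 was injected into hindpaws and thigh muscles of both sides, and labelled cells of lumbar ganglia were sorted by flow cytometry and sequenced with the SMART-seq2 protocol, which copies RNA from its poly(A) tail. Skin and muscle neurons were pooled in each library, so the targets cannot be told apart.

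Tissue injury and immune cells release mediators that lower the threshold of pain-sensing neurons, the nociceptors. Prostaglandin and bradykinin receptors are coupled to G proteins, through which they change cAMP or calcium, and several of them sensitise channels of the nerve ending. The cytokine receptors have no such coupling: IL-1 and TNF receptors recruit adaptor proteins that reach NF-kB and p38 kinase, and receptors with the gp130 chain recruit Janus kinases and STAT3.

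The libraries held 4800071 to 7329597 gene reads, so 3 reads, taken as the floor of detection, were worth 0.409 to 0.625 CPM (counts scaled to 1000000 gene reads). The labelled sexes were checked by Xist (395 to 764 reads in females, 0 to 6 in males) and Ddx3y (0 reads in females, 240 to 309 in males). All 15 pan-neuronal markers were detected, and their mean level on the log2(CPM + 1) scale was 9.51 to 9.78 in females and 9.54 to 9.60 in males. Glial RNA was present too: the 15 markers of satellite glia and Schwann cells, none of them at the floor, had a mean level of 6.81 to 7.14 in females and 6.10 to 6.77 in males, without overlap, and a summed level of 11722 to 15064 CPM in females against 5624 to 11280 CPM in males. Of these 15 markers, 3 had every female above every male, where 2.98% of all tested genes did. Pmp22 and Gfra3 had the higher mean in males, and the other markers had it in females. Apoe alone averaged 8940 CPM in females and 5818 CPM in males. The mean level of fibroblast markers also did not overlap, at 2.44 to 2.84 in females and 1.64 to 2.34 in males. Markers of macrophages and MHC class II sat at 0.725 to 1.42 and 0.417 to 0.825. The 4 haemoglobin genes had no reads, while Alas2, the remaining red blood cell marker, had 1 to 22 reads, so absence of blood RNA is not shown. Female replicate 4 stood apart from all other libraries in a way that touched some of the receptors, as described with Il6st and Lifr.

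All 10 receptors were detected in each of the 8 libraries and passed the expression filter. Their levels, compared between genes as CPM per kb of exon, spanned 151-fold. Lifr was highest with 102.8 ± 29.5 CPM per kb (SD, n = 8), followed by Il6st with 53.7 ± 17.4, Ptgir with 34.0 ± 5.71, Ptger1 with 19.3 ± 3.45, Tnfrsf1a with 8.28 ± 2.27, Ptger3 with 4.99 ± 1.05, Ptger4 with 2.88 ± 0.741, Bdkrb2 with 2.04 ± 0.719, Ptger2 with 0.803 ± 0.225 and Il1r1 with 0.680 ± 0.213 CPM per kb (SD, n = 8 each). Among the genes that passed the filter, 94.9% lay below Lifr on this scale and 6.08% below Il1r1. Of the neighbours in this order, Ptgir and Ptger1, and Ptger1 and Tnfrsf1a, had ranges that did not overlap. The other neighbours overlapped over the 8 libraries, although Lifr was above Il6st, Ptger3 above Ptger4 and Bdkrb2 above Ptger2 in 8 of 8 libraries. Ptger2 was above Il1r1 in only 4 of 8, so their order was not resolved.

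**Figure D1:**
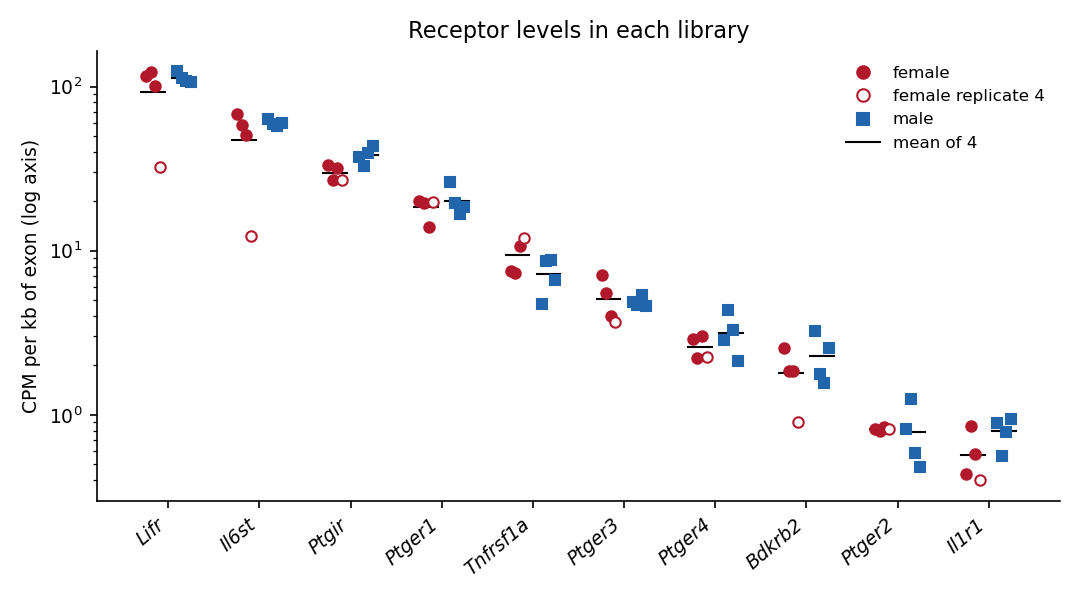
Level of each receptor gene in CPM per kb of exon (log axis), 1 point per library, with the mean of 4 libraries as a bar. Genes run from Lifr (102.8 CPM per kb on average) to Il1r1 (0.680), the sexes share their range for every gene, and the open circles of female replicate 4 lie far below the other libraries for Lifr and Il6st.

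The sexes were compared for each receptor in a fit across all genes. None of the 10 receptors passed an adjusted p-value of 0.05 in edgeR (adjusted p-values 0.630 to 0.975), where 0.0400% of all tested genes did (0.00799% in the female and 0.0320% in the male direction), and none passed with DESeq2 or limma-voom. Ptgir alone had an unadjusted p-value under 0.05, which is 1 of 10 receptors against 7.06% of all tested genes (4.60% in the female and 2.45% in the male direction), and Ptgir was also the only one by DESeq2 and limma-voom. For none of the 10 did the CPM ranges of the sexes separate, against 5.47% of all tested genes (2.98% with females above and 2.49% with males above). The estimate was lower in females for 7 receptors and higher for 3, with a median log2 fold change (female over male) of -0.30 against 0.0089 over all tested genes. The median of the receptors was -0.093 without female replicate 4, -0.19 without male replicate 1 and 0.015, with 5 in each direction, with the glial marker level as a covariate.

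Il6st encodes gp130, the shared signalling chain of the interleukin-6 family, and Lifr encodes the partner that joins gp130 to bind leukaemia inhibitory factor. Il6st (chromosome 13, 113265216 to 113297068, plus strand, build mm9) and Lifr (chromosome 15, 7079559 to 7147489, plus strand) were the most abundant receptors. Their RefSeq promoters (250 bases before the transcript start to 50 after, build GRCm38.p6) are printed because both genes are chains of 1 receptor complex, with Ptgir beside them as the receptor with the smallest p-value. Lifr has a pair of entries. Capitals mark GC boxes (GGGCGG) and CCAAT boxes (CCAAT) read on either strand.
Il6st, chr13:112463820-112464119, plus strand: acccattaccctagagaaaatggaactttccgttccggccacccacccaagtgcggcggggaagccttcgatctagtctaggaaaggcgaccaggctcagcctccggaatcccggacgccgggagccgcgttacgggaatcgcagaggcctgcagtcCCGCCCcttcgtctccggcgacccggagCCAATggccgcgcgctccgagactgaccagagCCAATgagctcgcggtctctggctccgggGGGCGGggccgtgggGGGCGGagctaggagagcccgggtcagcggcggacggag
Lifr, chr15:7129322-7129621, plus strand: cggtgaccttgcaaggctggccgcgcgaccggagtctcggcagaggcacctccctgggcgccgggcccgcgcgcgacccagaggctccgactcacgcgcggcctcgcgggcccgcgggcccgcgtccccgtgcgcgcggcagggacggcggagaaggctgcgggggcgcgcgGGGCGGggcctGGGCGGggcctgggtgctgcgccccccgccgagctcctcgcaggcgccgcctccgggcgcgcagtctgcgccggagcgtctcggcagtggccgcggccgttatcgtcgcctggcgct
Lifr, chr15:7140292-7140591, plus strand: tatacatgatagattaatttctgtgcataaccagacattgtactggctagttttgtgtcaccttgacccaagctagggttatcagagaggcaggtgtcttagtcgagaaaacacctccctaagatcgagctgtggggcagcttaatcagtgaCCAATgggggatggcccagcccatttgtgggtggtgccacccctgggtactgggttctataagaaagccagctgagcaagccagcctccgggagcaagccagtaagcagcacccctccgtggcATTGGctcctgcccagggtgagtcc
Ptgir, chr7:16906240-16906539, plus strand: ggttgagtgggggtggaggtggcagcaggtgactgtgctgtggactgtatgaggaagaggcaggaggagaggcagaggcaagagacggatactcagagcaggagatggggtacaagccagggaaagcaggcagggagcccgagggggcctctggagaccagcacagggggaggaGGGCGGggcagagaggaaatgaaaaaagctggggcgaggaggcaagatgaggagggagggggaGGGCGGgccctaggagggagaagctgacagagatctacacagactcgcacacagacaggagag

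Of the receptors, 9 had promoter entries, 11 entries in all. A GC box was present in 6 of the 11 and in 35.7% of all 32851 promoters, and a CCAAT box in 5 of the 11 and in 37.4% of all. A STAT element (TTCNNNGAA) was found in 1 of the 11, that of Tnfrsf1a, and in 8.30% of all. Neither a TATA box (TATAAA, 13.6% of all) nor a cAMP response element (TGACGTCA, 1.79% of all) was found in any of the 11. These are matches of letters on either strand within the printed window, not evidence of binding.

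Il6st was at 353, 305, 264 and 64.3 CPM in female replicates 1 to 4 and at 331, 307, 299.9 and 313 CPM in male replicates 1 to 4. Lifr was at 1191, 1259, 1040 and 335 CPM in the females and at 1281, 1163, 1124 and 1104 CPM in the males. Female replicate 4 was thus the lowest library for both genes, 4.78-fold below the mean of the other 3 females for Il6st and 3.47-fold below it for Lifr, while the other 3 females lay around the males. With all libraries Il6st had a log2 fold change of -0.35 ± 0.38 (SE, edgeR adjusted p 0.834) and Lifr one of -0.30 ± 0.32 (SE, edgeR adjusted p 0.832). With the same libraries, limma-voom gave -0.61 ± 0.44 for Il6st and -0.47 ± 0.36 for Lifr (SE). The replicate block gave -0.56 ± 0.38 and -0.45 ± 0.29 (SE). Without female replicate 4 the edgeR values became -0.041 ± 0.088 and -0.022 ± 0.080 (edgeR adjusted p-values 0.889 and 0.938), so the lower female mean of both rests on that library.

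Levels in female replicate 4 fell with exon length over all tested genes. The median log2 deviation of this library from the median library was 0.29 for the 2167 genes with up to 2 kb of exon, 0.16 for 2 to 4 kb, -0.22 for 4 to 6 kb, -0.47 for 6 to 8 kb and -0.53 for the 1431 genes over 8 kb. In the other 7 libraries these medians stayed between -0.043 and 0.11. Lifr has 10330 bases of exon and deviated by -1.77, and Il6st has 5207 bases and deviated by -2.23, both below the lower quartile of genes of their length (-0.96 and -0.77). Ptger4, the next longest receptor with 6648 bases, deviated by -0.34. Tnfrsf1a, with 2598 bases, deviated by 0.53 and was above the upper quartile of its length class (0.37). Lifr, Il6st and Tnfrsf1a therefore moved in the direction of their length class but further than most of its genes. Bdkrb2 (1680 bases, -0.71) and Ptgir (3334 bases, -0.28) moved against theirs and lay below its lower quartile (0.10 and -0.12). The cause of these departures was not tested.

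**Figure D2:**
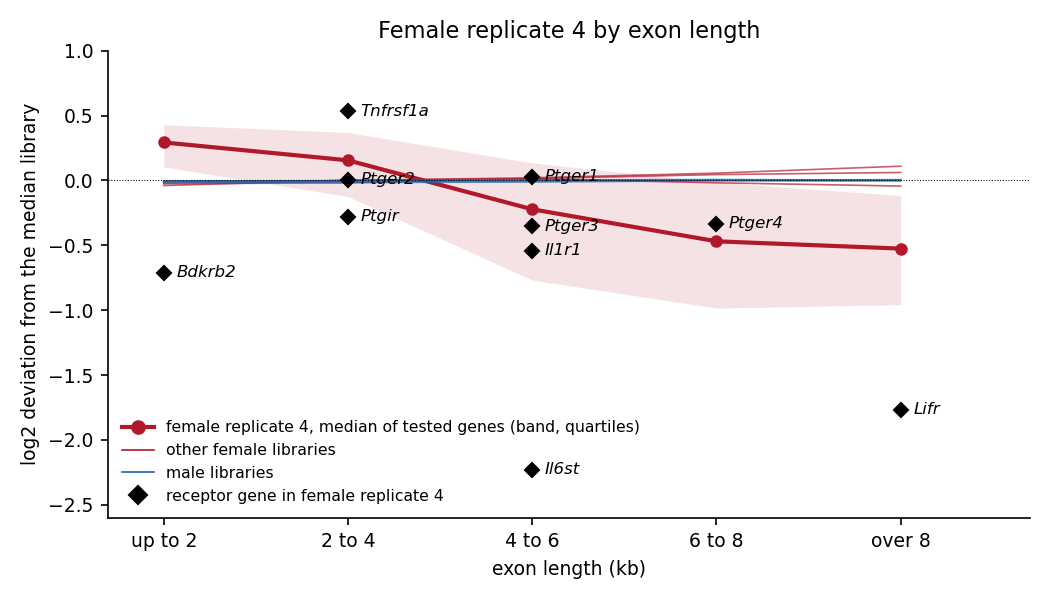
Log2 deviation from the median library (vertical axis) by exon length in kb. Lines are medians over tested genes for each library with the quartiles of female replicate 4 shaded, and diamonds are the receptors in female replicate 4. The line of that library falls from 0.29 to -0.53 while the other lines stay between -0.043 and 0.11, and Il6st (-2.23) and Lifr (-1.77) lie below the shaded band.

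In the male libraries these 2 genes had the lowest coefficients of variation of the receptors. Counting alone gives 2.19% for Il6st and 1.13% for Lifr there. For Ptger3 the male value of 7.43% was below the 8.19% of counting, so the order does not hold beyond counting error. The coefficient of variation among males was 4.22% for Il6st and 6.79% for Lifr, against 51.4% and 44.4% among females and 14.5% and 9.63% among the 3 females other than replicate 4. The ratio of Lifr to Il6st per kb of exon was 1.78 to 1.95 in males and 1.70 to 2.62 in females.

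The partner chains of the gp130 receptor family were far apart in level. Osmr, the oncostatin M receptor, reached 76.0 to 158 CPM across 3 of the female libraries and 71.9 in female replicate 4, with 106 to 205 CPM in males. Il31ra, which pairs with Osmr as the receptor of the itch cytokine interleukin-31, averaged 30.5 ± 17.7 CPM in females and 32.7 ± 7.09 CPM in males (SD, n = 4 each). Il6ra, the chain that binds interleukin-6 itself, had 0 to 4 reads per library and did not pass the filter, and at this depth most libraries were below the floor.

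Cntfr, the ciliary neurotrophic factor receptor, was at 24.9, 33.8, 43.1 and 40.6 CPM in female replicates 1 to 4 and at 14.2, 24.1, 24.4 and 23.7 CPM in male replicates 1 to 4. Every female library was above every male one, the nearest being female replicate 1 and male replicate 3. Over all tested genes, 2.98% separated with females above and 2.49% with males above. The other pathway gene that separated was Tollip, of the interleukin-1 list, at 350 to 366 CPM in males and 153 to 345 CPM in females. The log2 fold change of Cntfr, 0.71 ± 0.22 (SE), had an unadjusted p-value of 0.00868 and did not pass after adjustment in edgeR (0.630). Over the alternatives, 16 of 17 kept an unadjusted p-value under 0.05, and the exception was the fit with the glial marker level as a covariate (0.11 ± 0.23, SE). Since that level did not overlap between the sexes, the covariate competes with sex in the fit, and a call lost there does not separate the contribution of glial RNA from that of sex. Of the 23 listed genes of this pathway, 14 were tested and Cntfr was the only one with an unadjusted p-value under 0.05 (7.14%, against 7.06% of all tested genes), a share at the background, beside a median log2 fold change of -0.12. Jak1 averaged 343 ± 119 CPM in females and 357 ± 29.4 CPM in males, and Stat3 550 ± 136 and 668 ± 37.7 CPM (SD, n = 4 each), so the kinase and the transcription factor below gp130 were present in both sexes. The log2 fold change of Jak1 was -0.069 ± 0.24 and that of Stat3 -0.29 ± 0.17 (SE), and female replicate 4 was the lowest library for both (167 and 354 CPM).

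**Figure D3:**
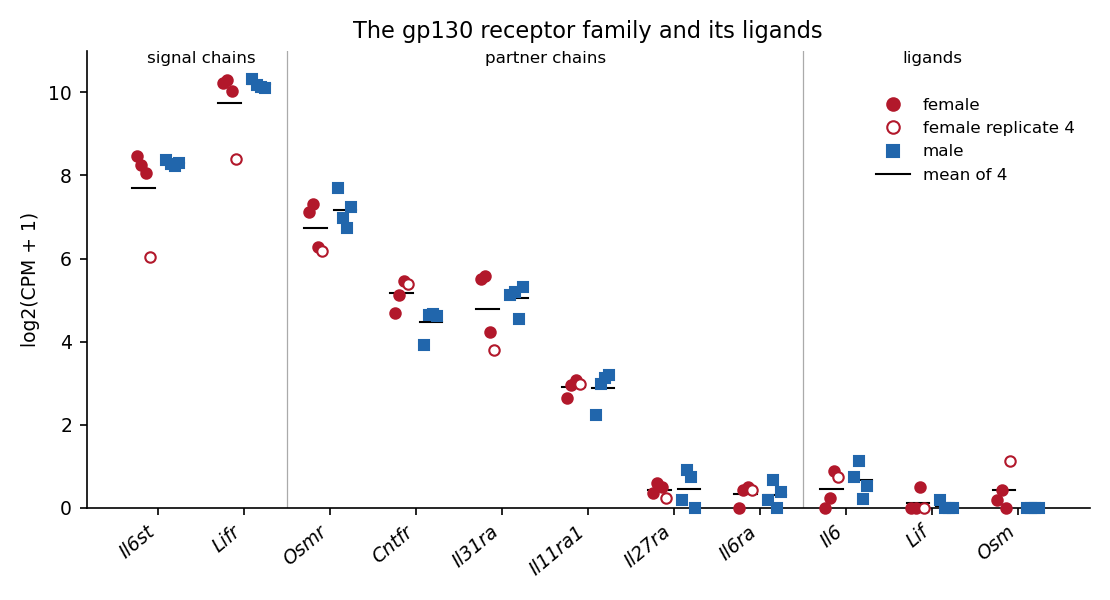
Level on the log2(CPM + 1) scale of the 2 signal chains, 6 partner chains and 3 ligands of the gp130 family, 1 point per library with the mean of 4 as a bar. Lifr, Il6st, Osmr, Cntfr and Il31ra are well above 0, Il6ra and the ligands lie near 0, and the female points of Cntfr are all above the male points. Females lay above males in this way for 2.98% of all tested genes.

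Messenger RNA for the ligands was close to absent from the sorted cells. Of 14 listed ligand genes, 13 had at most 8 reads in any library and none passed the filter. Il1b had 0 to 2 reads, Tnf 0 or 1, Lif 0 to 2, Il6 0 to 8 and Cntf 0 in all 8 libraries, which allows up to 0.625 CPM in the shallowest one. Ctf1, which encodes cardiotrophin-1, was the exception with 3 to 20 reads.

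Of the prostaglandin receptors, Ptgir, the prostacyclin receptor IP, which raises cAMP, was the most abundant. Ptgir (chromosome 7, 17491839 to 17496254, plus strand, mm9) made up 54.7% ± 5.25 (SD, n = 8) of the summed level per kb of the 5 prostaglandin receptors followed here. Ptger1 made up 31.2% ± 4.73, Ptger3 8.08% ± 1.63, Ptger4 4.67% ± 1.20 and Ptger2 1.32% ± 0.412. The sum leaves out the prostaglandin receptors Ptgdr (25.3 CPM per kb) and Ptgfr (6.53), so these are shares within the 5 genes only. Ptgir was at 110.9, 90.1, 107 and 90.5 CPM in female replicates 1 to 4 and at 125, 109, 131 and 145 CPM in male replicates 1 to 4. The females were lower, and the ranges overlapped through female replicate 1 and male replicate 2 alone. This is a log2 fold change of -0.37 ± 0.13 (SE), or 1.29-fold higher in males, for which edgeR gave an unadjusted p-value of 0.0157 and an adjusted one of 0.630. The unadjusted p-value stayed under 0.05 in 15 of 17 alternatives. The exceptions were the fit without male replicate 4, the male with the highest level (-0.30 ± 0.14, unadjusted p 0.0595 in edgeR), and the fit with the glial marker level as a covariate (-0.28 ± 0.19, unadjusted p 0.175 in edgeR). The markers of peptidergic nociceptors, at 8.53 to 9.17 on the log2(CPM + 1) scale in females and 9.11 to 9.53 in males, were also lower in females on average, with overlapping ranges. In a bulk sample, fewer cells of a type and less RNA per cell cannot be told apart, and the part of either marker list in the level of Ptgir was not tested beyond the covariate fit.

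Ptger1, the EP1 receptor of prostaglandin E2, which raises calcium, was at 100.1, 97.0, 69.6 and 98.7 CPM in female replicates 1 to 4 and at 130, 96.8, 82.7 and 91.3 CPM in male replicates 1 to 4. Female replicate 3 was low and male replicate 1 high, and the sexes overlapped broadly. Females over males, the log2 fold change came to -0.15 ± 0.17 (SE, edgeR adjusted p 0.842). Ptger1 lies on chromosome 8, 86190732 to 86196652, plus strand, mm9. Strand use in the counting is not stated in the sources used here, so this level is uncertain.

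Ptger3, the EP3 receptor, which lowers cAMP, was at 32.3, 25.3, 18.3 and 16.8 CPM in female replicates 1 to 4 and at 22.2, 21.4, 24.6 and 20.9 CPM in male replicates 1 to 4. The females spread on both sides of the males, with a coefficient of variation of 30.6% against 7.43% in males, where counting alone gives 8.86% and 8.19%. On average they did not separate, at a log2 fold change of 0.051 ± 0.21 (SE, edgeR adjusted p 0.959). Ptger4, the EP4 receptor, which raises cAMP, was at 19.4, 14.8, 20.0 and 15.0 CPM in the females and at 19.0, 29.1, 21.8 and 14.1 CPM in the males. The highest and the lowest library were both male, with the sexes at a log2 fold change of -0.29 ± 0.22 (SE, edgeR adjusted p 0.803), which was -0.097 without male replicate 2 and -0.45 without male replicate 4. Ptger4 shares 1097 of its 6648 exon bases with genes on the other strand, mostly a pseudogene, so its level and its share of the prostaglandin receptors are uncertain while strand use is unknown. Ptger2, the EP2 receptor, also coupled to cAMP, rested on 12 to 31 reads. It was at 3.02, 2.95, 3.12 and 3.03 CPM in the females and at 3.0, 4.60, 2.15 and 1.77 CPM in the males, where counting error is 24.0% of the level. Its log2 fold change was 0.054 ± 0.32 (SE), and the interval of 2 SE on either side, from -0.58 to 0.69, leaves a difference of up to 1.61-fold unresolved.

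The other prostanoid receptors place these values. Ptgdr, the DP receptor of prostaglandin D2, was at 25.3 ± 4.32 CPM per kb (SD, n = 8), between Ptgir and Ptger1, and Ptgfr, the receptor of prostaglandin F2 alpha, at 6.53 ± 2.27. Tbxa2r, the thromboxane receptor, was at 2.86 ± 0.719 CPM per kb, near Ptger4 on merged exon length, although Ptger4 was at 5.07 CPM per kb by its longest transcript. Ptgdr2 (listed as Gpr44) had at most 3 reads. The log2 fold changes of Ptgdr, Ptgfr and Tbxa2r were -0.078 ± 0.17, 0.24 ± 0.32 and 0.037 ± 0.26 (SE), and edgeR gave them adjusted p-values of 0.920, 0.872 and 0.981.

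Enzymes that start prostaglandin synthesis were close to undetected, with 0 to 4 reads for Ptgs1 (COX-1) and 0 to 2 for Ptgs2 (COX-2). Of the 20 listed genes of this pathway, 11 were tested, none passed the adjusted p-value, and 4 had an unadjusted p-value under 0.05 (36.4%, against 7.06% of all tested genes), 3 higher and 1 lower in females. The list's median log2 fold change was 0.24. The 3 were Gnas, which encodes the G protein subunit that couples receptors to cAMP (0.53 ± 0.16), and the prostaglandin E synthases Ptges2 (1.07 ± 0.35) and Ptges (0.89 ± 0.38), and the 1 was Abcc4, a transporter that exports prostaglandins and cyclic nucleotides (-0.33 ± 0.15, log2 fold change ± SE each). Their edgeR adjusted p-values were 0.608, 0.630, 0.690 and 0.690. The unadjusted p-value stayed under 0.05 in 16 of 17 alternatives for Gnas, 15 for Ptges2 (not in limma-voom or with the glial covariate), 12 for Ptges and 7 for Abcc4, which kept it in 1 of the 8 fits without 1 library.

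Ptges2 was at 14.2, 48.4, 51.2 and 59.6 CPM in female replicates 1 to 4 and at 16.8, 21.2, 19.8 and 23.8 CPM in male replicates 1 to 4. Gnas was at 927, 1469, 1458 and 1600 CPM in the females and at 936, 863, 901 and 1031 CPM in the males. Female replicate 1 was the lowest of all libraries for Ptges2 and lay among the males for Gnas, and for both genes the other 3 females lay above every male. Without female replicate 1, Ptges2 had a log2 fold change of 1.37 ± 0.16 and Gnas of 0.68 ± 0.11 (SE), with edgeR adjusted p-values of 0.00478 and 0.0205, in a fit where 68 genes in all were called higher in females against 1 with all libraries. In the other 7 fits without 1 library neither passed, with edgeR adjusted p-values of 0.404 to 0.972 for Ptges2 and 0.341 to 0.972 for Gnas. With the glial covariate Ptges2 was at 0.44 ± 0.53, Gnas at 0.41 ± 0.25 and Ptges at 0.24 ± 0.48 (SE). Ptges also kept its unadjusted p-value under 0.05 in only 4 of the 8 fits without 1 library.

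Bdkrb2 encodes the B2 receptor, the form of the bradykinin receptor that resting cells carry. Bdkrb2 (chromosome 12, 106801382 to 106831281, plus strand, mm9) was at 4.26, 3.12, 3.12 and 1.52 CPM in female replicates 1 to 4, from 9 to 31 reads, and at 5.46, 2.97, 2.64 and 4.29 CPM in male replicates 1 to 4, from 16 to 40 reads. The sexes overlapped, with the lowest value in female replicate 4 and the highest in male replicate 1. Its log2 fold change was -0.36 ± 0.35 (SE, edgeR adjusted p 0.820), and the interval of 2 SE on either side runs from 0.477 to 1.27 times the male level. Single libraries moved it, to -0.14 without male replicate 1, -0.15 without female replicate 4 and -0.60 without female replicate 1, and its sign turned with the glial marker level as a covariate, to 0.45 ± 0.40 (SE). Bdkrb1, the inducible B1 receptor, had at most 1 read in any library. Of the 14 listed bradykinin genes, 7 were tested and none had an unadjusted p-value under 0.05, where 7.06% of all tested genes did. Gnaq and Plcb3, the G protein subunit and the phospholipase below this receptor, were at 532 and 879 CPM on average, with log2 fold changes of -0.20 ± 0.13 and -0.28 ± 0.25 (SE).

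Il1r1, the receptor that binds interleukin-1, was the lowest of the 10 per kb. Il1r1 (chromosome 1, 40281925 to 40373043, plus strand, mm9) was at 2.20, 4.34, 2.92 and 2.02 CPM in female replicates 1 to 4, from 12 to 25 reads, and at 4.50, 2.82, 3.96 and 4.73 CPM in male replicates 1 to 4, from 19 to 33 reads. Female replicate 2 lay among the higher males and male replicate 2 among the females. At -0.50 ± 0.31 (SE, edgeR adjusted p 0.766), its log2 fold change was the largest in size of the 10. It ranged from -0.79 without female replicate 2 (unadjusted edgeR p 0.0302, adjusted 0.686) to -0.37 without female replicate 4 (unadjusted edgeR p 0.271) over the fits without 1 library, and the first of these was the only one with an unadjusted p-value under 0.05. Endothelial cells also carry Il1r1, and of their 9 markers 1 had at most 3 reads in every library. The mean level of the 9 was 0.544 to 1.5 in females and 0.615 to 0.887 in males on the log2(CPM + 1) scale, and their summed level 4.79 to 21.2 and 5.28 to 9.02 CPM. The part of these cells in the level of Il1r1 was not tested. Il1rap, the accessory chain that completes the receptor, was at 3.91 ± 2.33 CPM in females and 4.20 ± 0.943 CPM in males (SD, n = 4 each). Of the 16 listed interleukin-1 genes, 9 were tested, none had an unadjusted p-value under 0.05 (7.06% of all tested genes), and the median log2 fold change was -0.26.

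Tnfrsf1a encodes TNFR1, the receptor with a death domain that most cell types carry. Tnfrsf1a (chromosome 6, 125299380 to 125312502, plus strand, mm9) was at 19.5, 18.9, 27.9 and 30.8 CPM in female replicates 1 to 4 and at 12.3, 22.6, 22.8 and 17.3 CPM in male replicates 1 to 4. The 2 highest libraries were female and the 2 lowest male, with the other 4 mixed. At 0.36 ± 0.24 (SE, edgeR adjusted p 0.772), its log2 fold change was the highest of the 10. It fell to 0.20 without male replicate 1 and 0.22 without female replicate 4, and rose to 0.46 without male replicate 3. With the glial marker level as a covariate its sign turned, to -0.26 ± 0.24 (SE). Male replicate 1, the lowest library for Tnfrsf1a, also had the lowest level of glial markers (6.10), of fibroblast markers (1.64) and of markers of myelinated neurons (5.55 against 6.47 to 7.35 in the other libraries), and the highest level of peptidergic markers (9.53). The myelinated markers averaged 7.08 in females and 6.44 in males. The part of these cells in the level of Tnfrsf1a was not tested beyond the glial covariate. Tnfrsf1b, the second TNF receptor, was at 4.78 ± 0.704 CPM in females and 5.33 ± 0.603 CPM in males (SD, n = 4 each). Of the 23 listed genes of this pathway, 18 were tested, none had an unadjusted p-value under 0.05 (7.06% of all tested genes), and the median log2 fold change was 0.051.

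**Figure D4:**
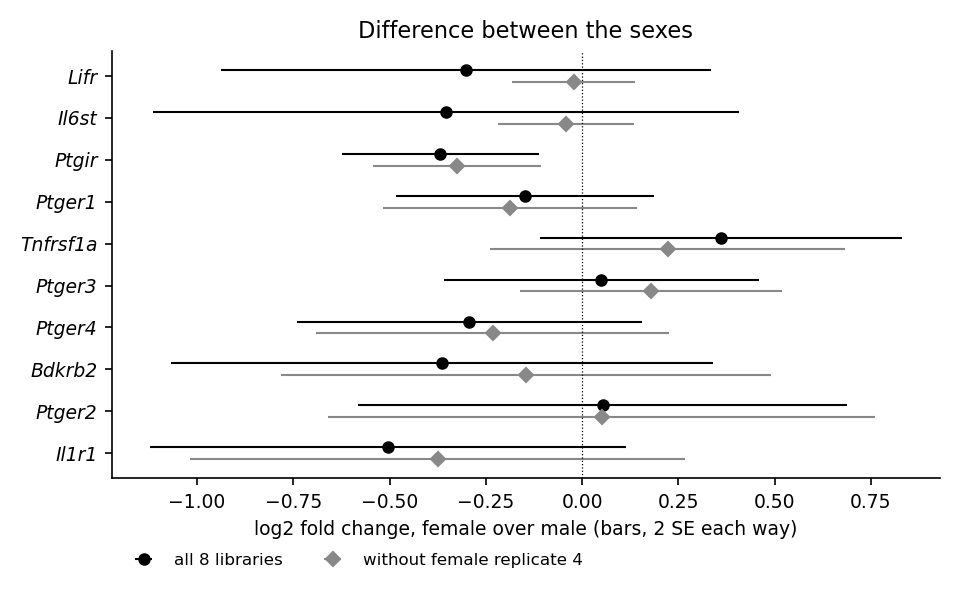
Log2 fold change (female over male) of each receptor in the edgeR fit, with bars of 2 SE each way, for all 8 libraries (black circles) and without female replicate 4 (grey diamonds). Every black bar except that of Ptgir crosses 0, and the bars of Lifr and Il6st shorten and move to 0 when female replicate 4 is left out.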

How the data were processed

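The authors aligned single reads to mouse build mm9 (TopHat2) and deposited raw read counts per gene (HTSeq-count) for 8 libraries. Versions, annotation and strand setting are not given in the sources used here. Of the reads in genes, outside genes or ambiguous, 57.8% to 60.5% lay outside genes and 0.145% to 0.169% were ambiguous. The bearing of these shares on the strand setting was not tested. The 5 summary lines of each file were left out. PCR copies could not be told from separate molecules, so floors and counting errors cover counting error only. CPM scales counts to 1000000 gene reads, and CPM per kb divides it by merged exon length from GENCODE M1 (mm9), which matched 21627 of 22609 symbols.

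The sexes were compared with the edgeR 4.0.16 quasi-likelihood test in R 4.3.3 (TMM factors, default expression filter, sex alone as in the study), with Benjamini-Hochberg adjustment over all 12518 tested genes. Counts of called genes leave out the sex-linked ones, which leaves 12512. Standard errors come from the estimate and its F statistic. The fit was also run on simulated data, whose outcome is not reported here. Alternatives tried were limma-voom (limma 3.58.1), DESeq2 1.42.0, other scalings and filters, each library left out, a replicate block, the glial marker level as a covariate and, chosen after seeing the data, exon length offsets. The receptors and lists were chosen with earlier results of these data known. Named genes were the 10 receptors, fixed partner chains, ligands and enzymes, the pathway genes with an unadjusted p-value under 0.05 (up to 12), and Xist and Ddx3y as label checks. Jak1, Stat3, Gnaq, Plcb3, Il31ra, Cntf, Ctf1, Ptgdr2, Irak2 and Tollip were named outside that rule, after their values were seen. So were the markers Apoe, Pmp22, Gfra3 and Alas2. Python 3.11.15 and matplotlib 3.10.9 were used for tables and figures.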

Additional observations from a re-analysis of the deposited data

Results flagged for a closer look

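Levels of receptors, named genes and marker lists were searched, in each sex, for a lowest or highest library separated from the remaining 3 by most of the group's range, leaving out genes with at most 3 reads in every library of that sex. This was met in 8 of 88 groups, and chance alone meets it in about 4.4. Among the receptors this was Ptger1 in female replicate 3, at 69.6 CPM against 97.0 to 100.1 CPM in the other females. Among partner chains it was Cntfr in male replicate 1, at 14.2 CPM against 23.7 to 24.4 CPM, and Tnfrsf1b in female replicate 3, at 5.83 CPM against 4.38 to 4.51 CPM. Among signalling genes it was Gnaq in male replicate 1, at 638 CPM against 531 to 547 CPM in the other males. Among marker levels, on the log2(CPM + 1) scale, these were macrophages and MHC class II in female replicate 1 (0.725 against 1.34 to 1.42), lymphocytes and neutrophils in female replicate 4 (1.51 against 0.168 to 0.350), and red blood cells in female replicate 4 (0.447 against 0.0546 to 0.0996) and male replicate 4 (0.106 against 0.0369 to 0.0441). The red blood cell level rests on Alas2 alone, since the 4 haemoglobin genes had no reads, and in male replicate 4 it came from 3 reads, the floor. The low levels of Il6st and Lifr in female replicate 4 did not reach this limit.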

How the results depend on the processing

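No receptor passed an adjusted p-value of 0.05 in any of 170 values over 17 alternatives (lowest 0.344, Ptgir without female replicate 4), and 159 kept their direction. With the glial marker level as a covariate, 6 log2 fold changes turned: Ptger1 0.21, Ptger2 -0.0071, Bdkrb2 0.45, Il6st 0.037, Tnfrsf1a -0.26 and Lifr 0.037. The other 5 turned without 1 library: Ptger1 0.0059 without male replicate 1, Ptger2 -0.064 and -0.12 without male replicates 3 and 4, and Ptger3 -0.15 and -0.0017 without female replicates 1 and 2. Over the fits without 1 library these ranged from -0.24 to 0.0059 for Ptger1, -0.12 to 0.36 for Ptger2 and -0.15 to 0.18 for Ptger3. The cause was not tested. The number of receptors with an unadjusted p-value under 0.05, all lower in females, was 0 with the glial covariate and 0 to 2 over the fits without 1 library.

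Over all genes, 1 passed the adjusted p-value higher in females and 4 higher in males. These were 21 and 21 with DESeq2, 0 and 0 with the glial covariate, 1 and 0 with the replicate block, and 7 higher in males with exon length offsets. Without 1 library they were 0 to 68 and 1 to 10, with the highest numbers without female replicate 1 in both. At an unadjusted p-value under 0.05, 576 and 307 became 141 and 113 with the glial covariate, 606 were higher in males with length offsets, and without 1 library they were 397 to 723 and 184 to 724. Among pathway genes, 4 and 1 became 1 and 0 with the glial covariate (none of the 4 remained, and the 1 was Irak2), and the number lower in females became 0 with library size alone, 0 with the replicate block and 4 with length offsets. Without 1 library they were 3 to 6 and 0 to 2, and 0 to 2 passed the adjusted p-value higher in females.

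The replicate number does not pair the libraries, which come from different mice: the deviations of same-numbered libraries correlated at -0.109 to 0.144, and the block is given for its counts only. With the length of the longest transcript, the levels per kb of Ptger3 (6.36) and Ptger4 (5.07) moved by more than 1 SD, and the order of the 10 receptors stayed the same. Receptors with 9 to 40 reads (Ptger2, Bdkrb2, Il1r1) are limited by depth.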
